A study of Mus musculus with 12 samples.

Results

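The developmental transcription factors described here are *Eya1*, *Sox9*, *Pax3*, *Pax8*, *Pbx3* and *Hhex*. They were chosen by gene symbol, with earlier results of these data known. All 6 were among the 770 genes of the nCounter mouse PanCancer pathways panel, which counts RNA molecules with color-coded probes and without amplification. RNA was measured in 12 samples, each from an individual animal. The 5 *RBS* lesions came from E18.5 eyes of Rax-creERT2::Ctnnb1(ex3)Fl/+SmoM2Fl/+ embryos given tamoxifen at E8.5. In these embryos, Cre under the *Rax* promoter acts in early retinal precursor cells, removes exon 3 of *Ctnnb1*, which stabilizes beta-catenin, and switches on SmoM2, an active form of the Shh transducer Smo. The 4 control eyes came from E18.5 embryos with Ctnnb1(ex3)Fl/+SmoM2Fl/+, the same floxed alleles without the Cre driver, and their labels name no tamoxifen. The 3 Shh medulloblastomas (Shh-MBs) were hindbrain tumors of 14-day-old hGFAP-cre::SmoM2Fl/+ mice, which carry SmoM2 but no altered *Ctnnb1*. Every group thus carried the SmoM2 allele, and it was not recombined by a Cre driver in the control eyes. Shh-MBs differ from the eyes in tissue, age and driver, and these cannot be told apart.

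Transcription factors of this kind set the identity of cells in the embryo. Pax proteins bind DNA through a paired domain. Eya proteins do not bind DNA themselves: they are coactivators with phosphatase activity that are recruited by DNA-binding partners, and *EYA1* mutations cause branchio-oto-renal syndrome. Sox9 is an HMG-box factor of cartilage, neural stem cells and glia, and in the eye it is known from retinal progenitors, Müller glia and the pigmented epithelium. Pbx3 is a TALE homeodomain factor that pairs with Hox and Meis proteins. Hhex is a homeodomain factor of endothelium, blood progenitors, liver and thyroid, and it usually acts as a repressor.

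Signals below are the authors' normalized values on the linear scale. Depth, taken as the total signal divided by the signal of 1 count, was between 335348 and 716963 counts above background, and the shallowest library was RBS 1. Each gene's probe has its own efficiency, so the levels of different genes are not compared. The median signal over all genes was 112 to 125 in control eyes, 130.04 to 138.7 in the lesions and 67.0 to 86.5 in the tumors, so each difference from Shh-MBs depends on how samples are scaled. Of the targeted genes, *Ctnnb1* was 5688 ± 171 (SD, n = 4) in control eyes and 7957 ± 395 (SD, n = 5) in the lesions (log2 difference 0.48, limma adjusted p = 0.00063). *Smo* was 177 ± 13.6 (SD, n = 5) against 157 ± 14.5 (SD, n = 4), with an adjusted p of 0.164 in limma. *Fgf15*, the sole retina marker measured of 9 listed, was 835 to 1094 in control eyes, 74.6 to 152 in the lesions and at most 4.87 in Shh-MBs. The granule cell markers *Zic2* and *Gli1* together were 1165 to 1355 in Shh-MBs, above all eyes, and other granule cell markers were not measured.

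In the comparison with control eyes, *Hhex*, *Sox9* and *Pax3* were higher in *RBS* lesions, and none of the 6 genes was lower at the threshold. This is 3 of 6 genes at an adjusted p under 0.05 in limma, beside 51.2% of all panel genes in either direction and 33.0% in the higher direction. The groups did not overlap for *Hhex* and *Sox9*, 2 of 6 genes and higher in the lesions, beside 43.4% of the panel (27.5% higher and 15.8% lower). Of all genes, 18.2% were lower at the threshold. The median log2 difference of the 6 genes was 0.41, beside 0.17 over all genes. A share this close to the panel's says nothing particular of the 6 genes as a group, and they are described singly below.

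**Figure D1:**
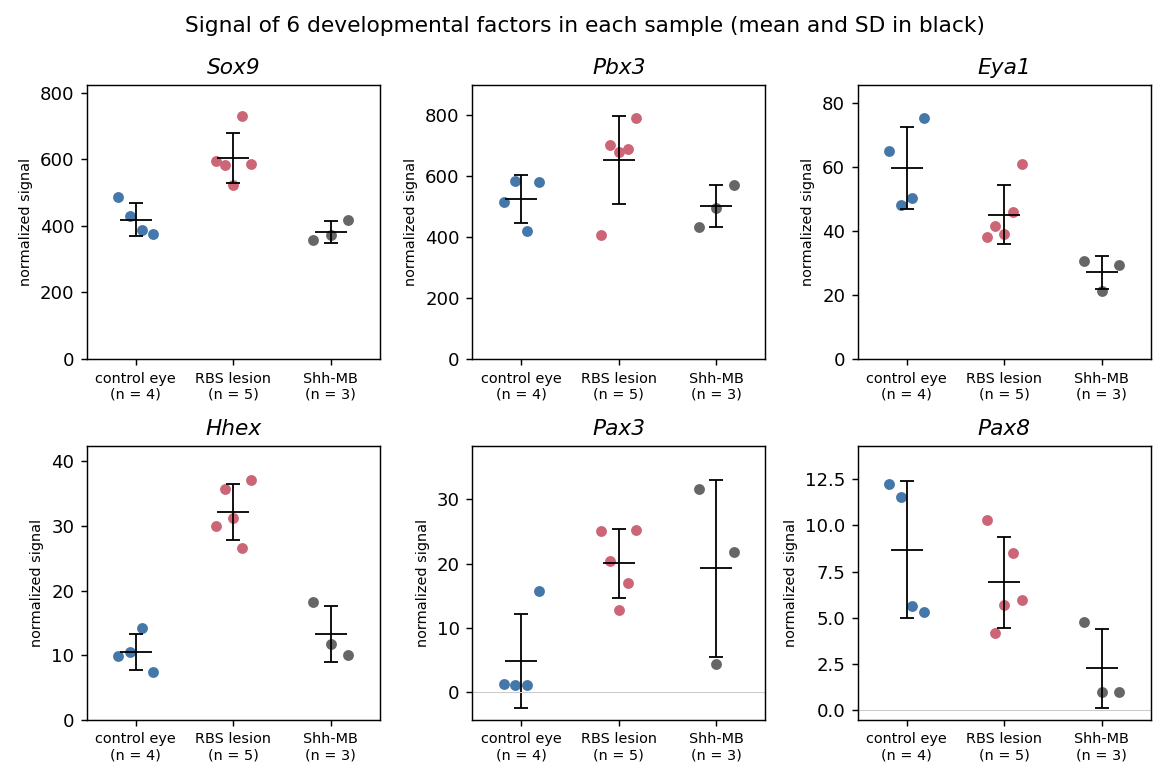
Normalized signal (linear scale) of the 6 genes in each of the 12 samples, with group mean and SD in black. The 5 *RBS* lesions lie above the 4 control eyes for *Sox9* and *Hhex*, while *Pax3* is at the floor in 3 control eyes and at 15.7 in the fourth.

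*Hhex* showed the clearest separation. The signal was 30.0, 35.7, 31.2, 26.6 and 37.1 in RBS 1 to 5 and 9.92, 10.5, 14.2 and 7.38 in control eyes 1 to 4. Every *RBS* lesion was above every control eye. The mean was 32.1 ± 4.29 (SD, n = 5) against 10.5 ± 2.79 (SD, n = 4). The log2 difference was 1.55 (95% interval 1.16 to 1.94, limma adjusted p = 0.000108), a 2.93-fold higher level on the scale of log2(signal + 1). It lay at the 93.2 percentile of the differences of all 770 genes. Control eyes hold only 7.09 to 13.3 counts of *Hhex* above background, against 18.3 to 44.1 in *RBS* lesions. The difference was 1.21 to 1.62 under the other scalings and at least 0.67 in every alternative tried. With signals under 20 set to 20 the difference was 0.67, because all control eyes were then at the limit.

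In Shh-MBs, *Hhex* was 18.2, 11.8 and 9.96, with a mean of 13.3 ± 4.32 (SD, n = 3). These values overlapped the control eyes, and the log2 difference to them was 0.31 (95% interval -0.32 to 0.94, adjusted p = 0.408). The order of the levels was *RBS* lesions, Shh-MBs and control eyes, and the latter neighbours were not separated. With median centring, Shh-MBs were higher than control eyes (0.97, adjusted p = 0.0133), as with quantile normalization (1.43, adjusted p = 0.00599). Against Shh-MBs, *RBS* lesions were higher by 1.24 (95% interval 0.78 to 1.70, adjusted p = 0.00079), with no overlap between the groups. This difference did not hold under every scaling: it was 0.40 (adjusted p = 0.0838) with samples centred on their median and -0.35 (adjusted p = 0.101) with quantile normalization. It was 0.67 with signals under 20 set to 20, where all Shh-MBs were at that limit, and with the methods' test and Benjamini-Hochberg adjustment it did not pass (adjusted p = 0.05001).

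Cells that express *Hhex* include endothelium and blood progenitors, whose markers did not move together. Of 5 measured blood and immune markers, *Csf1r*, *Cd14* and *Il7r* rose from control eyes to *RBS* lesions and 2 did not pass. The list summed to 83.9 to 119 in control eyes and 169 to 229 in the lesions. Of 3 endothelial markers, *Kdr*, the main VEGF receptor, fell (log2 difference -1.49, adjusted p = 4.32e-05) while *Flt1* (0.12) and *Angpt2* (0.22) did not pass. The endothelial sum was 1789 to 2259 in control eyes and 695 to 988 in the lesions, and it is carried by *Kdr* alone, with a median log2 difference over the 3 genes of 0.12. Whether either cell type has a part in the *Hhex* difference was not tested. In bulk RNA, more cells of a type and more RNA per cell cannot be told apart.

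Promoter windows from RefSeq (GRCm38.p6) were found for *Hhex* and *Pax8*, 2 of the 6 genes. They are shown because the sequence table held windows for no other of the 6 genes. Each is the 250 bases before the start of the gene, 5′ to 3′ on its strand. The *Hhex* window is at chr19:37434591-37434840 on the plus strand and the *Pax8* window at chr2:24475600-24475849 on the minus strand. Capitals mark the GC box GGGCGG and the CCAAT box CCAAT, on either strand.
Hhex: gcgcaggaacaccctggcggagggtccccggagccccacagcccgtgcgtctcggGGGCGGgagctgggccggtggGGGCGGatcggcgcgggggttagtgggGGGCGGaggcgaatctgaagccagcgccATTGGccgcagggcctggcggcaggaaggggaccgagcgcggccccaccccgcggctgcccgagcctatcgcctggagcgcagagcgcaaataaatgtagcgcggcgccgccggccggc
Pax8: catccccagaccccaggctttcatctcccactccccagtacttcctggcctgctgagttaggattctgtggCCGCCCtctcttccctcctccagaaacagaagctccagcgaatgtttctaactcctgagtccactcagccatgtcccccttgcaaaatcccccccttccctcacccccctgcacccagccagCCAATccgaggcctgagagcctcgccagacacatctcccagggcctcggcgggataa

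The *Hhex* window held 3 GC boxes and 1 CCAAT box, and the *Pax8* window 1 of each. Of 32851 promoter windows of the same length, 32.7% held a GC box and 33.8% a CCAAT box. These motifs were chosen for display after the windows had been read. The *Hhex* window had 32 CpG dinucleotides and 76.0% G or C, and the *Pax8* window 6 and 60.4%, where the medians of all windows were 6 and 52.4%. The Gli motif GACCACCCA, found in 0.225% of all windows, and the Tcf/Lef motifs CTTTGAT and CTTTGAA, found in 7.48%, were absent from both windows on both strands. That says only that these letters are not in these windows.

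*Sox9* was the most evenly measured of the 6 genes, with at least 318 counts above background in every sample and a within-group SD of 0.16 on the log2 scale. The signal was 595, 583, 524, 729 and 587 in RBS 1 to 5. It was 485, 428, 387 and 375 in the control eyes and 356, 371 and 419 in the Shh-MBs. All *RBS* lesions were above all other samples, while control eyes and Shh-MBs overlapped. The mean rose from 419 ± 49.7 (SD, n = 4) in control eyes to 604 ± 75.7 (SD, n = 5) in the lesions, by 0.52 on the log2 scale (95% interval 0.25 to 0.80, limma adjusted p = 0.00562) or 1.44-fold. It kept its sign under the other scalings but with quantile normalization it was 0.24 and did not pass (adjusted p = 0.0684).

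Against Shh-MBs (382 ± 32.6, SD, n = 3), *Sox9* was higher in *RBS* lesions by 0.65 (95% interval 0.36 to 0.95, adjusted p = 0.00231). This direction reversed with median centring (-0.19, adjusted p = 0.323) and was 0.09 with quantile normalization. Shh-MBs and control eyes differed by -0.13 (95% interval -0.43 to 0.18, adjusted p = 0.472), and with median centring this turned to 0.54 and passed (adjusted p = 0.0335). Of 7 genes listed for radial and Müller glia, 4 were measured, and *Gfap*, *Aqp4* and *Rlbp1* were not. *Hes1* and *Hes5*, which are Notch targets, fell in *RBS* lesions against control eyes, *Fgfr3* rose and *Notch1* (-0.22) did not pass. *Hes5* was 2089 ± 293 (SD, n = 5) against 3889 ± 693 (SD, n = 4), and *Fgfr3* 670 ± 181 (SD, n = 5) against 192 ± 70.8 (SD, n = 4). *Sox9* thus rose beside 4 listed genes of mixed direction. Whether these genes mark glia in E18.5 eyes, and the part of glia in *Sox9*, were not tested.

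*Eya1* was highest in control eyes, lower in *RBS* lesions and lowest in Shh-MBs. The signal was 65.1, 48.0, 50.3 and 75.1 in control eyes 1 to 4, 38.2, 41.4, 39.2, 45.9 and 60.9 in RBS 1 to 5, and 30.5, 21.1 and 29.5 in the Shh-MBs. Only RBS 5 reached into the range of the control eyes, and all Shh-MBs were below all eyes. Between *RBS* lesions (45.1 ± 9.29, SD, n = 5) and control eyes (59.6 ± 12.8, SD, n = 4) the log2 difference was -0.39 (95% interval -0.80 to 0.02, limma adjusted p = 0.102). It passed as lower without RBS 5 (-0.50, adjusted p = 0.0321). It also passed after median centring (-0.57, adjusted p = 0.0221) or quantile normalization (-0.58, adjusted p = 0.0228). In 16 of 20 alternatives it did not pass. Among these were housekeeping centring (-0.32, adjusted p = 0.162) and the fit without control eye 4 (-0.27, adjusted p = 0.243).

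Shh-MBs (27.0 ± 5.13, SD, n = 3) were lower in *Eya1* than control eyes by 1.11 on the log2 scale, with a log2 difference of -1.11 (95% interval -1.61 to -0.60, adjusted p = 0.00567). *RBS* lesions were above Shh-MBs by 0.71 (95% interval 0.27 to 1.16, adjusted p = 0.0113). The latter turned to -0.13 with median centring and to -0.62 (adjusted p = 0.0312) with quantile normalization, so its direction rests on the scaling. The former was -0.44 (adjusted p = 0.0633) and -0.03 (adjusted p = 0.898) under the same scalings.

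*Eya1* remained above background in the Shh-MBs, with 22.6 to 34.7 counts. *Col1a1*, a collagen of mesenchyme, was 21672, 10638, 16040 and 25754 in control eyes 1 to 4. Control eyes thus took the same order for *Eya1* and *Col1a1*, with eye 4 highest and eye 2 lowest, whereas RBS 5 had the highest *Eya1* of the lesions and RBS 1 the highest *Col1a1* (15305). Whether the amount of periocular mesenchyme in a sample has a part in the *Eya1* values was not tested.

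*Pax3*, a factor of the dorsal neural tube, neural crest and muscle progenitors, was the least even of the 6 genes. The signal was 1.17, 1.01, 1.06 and 15.7 in control eyes 1 to 4, where the first 3 values are the lowest of their samples. It was 25.1, 20.3, 12.7, 16.9 and 25.2 in RBS 1 to 5. Each *RBS* lesion was thus above background, with 14.0 to 27.5 counts, and so was control eye 4 alone among the control eyes, above the lowest lesion. The log2 difference was 2.55 (95% interval 1.15 to 3.94, limma adjusted p = 0.00721) in a fit that includes control eye 4. Without that eye all 3 control eyes left are at the floor and differ only by their scaling factors, so the fitted 3.30 is no measured size and no p is given. Since 3 control eyes are at the floor, the size depends on the value added before the log. With signals under 20 set to 20 the difference was 0.14 (adjusted p = 0.257), and with the methods' test and Benjamini-Hochberg adjustment it did not pass (adjusted p = 0.0785).

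In the Shh-MBs *Pax3* was 31.6, 4.29 and 21.8. Shh-MB 2 stood far below the other tumors, and the mean of 19.2 ± 13.8 (SD, n = 3) was near the 20.05 ± 5.37 (SD, n = 5) of *RBS* lesions. The log2 difference between them was 0.37 (95% interval -0.92 to 1.67, adjusted p = 0.582), and it turned to -0.42 (adjusted p = 0.269) without Shh-MB 2. Shh-MBs and control eyes differed by 2.17 (95% interval -0.16 to 4.51, adjusted p = 0.123). Without control eye 4 it was 2.92, again against floor values alone and with no p given. With control eye 4 kept, the difference passed with all 12 samples in 1 fit (2.17, adjusted p = 0.0409), with median centring (2.84, adjusted p = 0.0267) and with quantile scaling (3.07, adjusted p = 0.0205).

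Control eye 4 was also the highest control eye for *Eya1* and *Col1a1* and for *Itga7* (29.3) and *Fgfr4* (27.2), which were on the list of skeletal muscle markers. Of that list, *Itga7*, *Fgfr4* and *Cacng1* were measured, and none of the 3 passed between *RBS* lesions and control eyes. Their summed signal was 34.3 to 91.7 in the lesions and 17.3 to 79.4 in control eyes. In the Shh-MBs, which are hindbrain tumors, it was 275 to 323, with *Itga7* and *Fgfr4* above all eyes and *Cacng1* between 1.00 and 1.12. The myogenic factors *Myod1* and *Myog* were not measured. The part of muscle or mesenchyme in the *Pax3* values was not tested.

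*Pax8*, a factor of thyroid, kidney, inner ear and the midbrain-hindbrain boundary, was near the floor in all 12 samples, with a highest signal of 12.3. The signal was 12.3, 11.5, 5.66 and 5.30 in the control eyes and 10.3, 4.16, 5.66, 8.49 and 5.97 in the *RBS* lesions. The groups overlapped, and the log2 difference was -0.26 (95% interval -0.96 to 0.44, limma adjusted p = 0.521). These values rest on 5.09 to 11.4 counts above background in control eyes and 5.13 to 7.04 in *RBS* lesions. In Shh-MB 1 *Pax8* was 4.75, and in Shh-MB 2 and 3 it was at the lowest value, 1.00.

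At the threshold, *Pax8* was lower in Shh-MBs than in *RBS* lesions (log2 difference 1.42 for *RBS* minus Shh-MB, adjusted p = 0.0156) and than in control eyes (-1.68 for Shh-MB minus control eye, adjusted p = 0.0304). No fold is given, since these sizes depend on the value added before the log. The former call was lost without Shh-MB 2 (adjusted p = 0.0647) and without Shh-MB 3 (adjusted p = 0.065). The latter was lost without Shh-MB 2 (adjusted p = 0.101), Shh-MB 3 (0.0979), control eye 1 (0.0749) or control eye 2 (0.0753). Both calls were also lost with median centring (0.58, adjusted p = 0.172, and -1.02, adjusted p = 0.0718) and with quantile scaling (0.75, adjusted p = 0.198, and -1.23, adjusted p = 0.121). The same held for the methods' test with Benjamini-Hochberg adjustment (adjusted p = 0.14 and 0.127).

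*Pbx3* had the narrowest range of group means of the 6 genes, 0.36 on the log2 scale. The signal was 407, 702, 680, 690 and 791 in RBS 1 to 5, 514, 585, 419 and 582 in the control eyes and 435, 497 and 572 in the Shh-MBs. RBS 1, the library of least depth, was below every other sample, and the other 4 lesions were above all control eyes and Shh-MBs. RBS 1 still held 248 counts of *Pbx3* above background. With all samples, the log2 difference was 0.29 (95% interval -0.16 to 0.75, limma adjusted p = 0.26) against control eyes and 0.36 (95% interval -0.16 to 0.87, adjusted p = 0.196) against Shh-MBs. Without RBS 1, both passed, with 0.46 (adjusted p = 0.0171) and 0.52 (adjusted p = 0.00858). The difference from control eyes was 0.11 with median centring and 0.03 with quantile scaling. Shh-MBs and control eyes overlapped (-0.06, 95% interval -0.45 to 0.33, adjusted p = 0.814), but with median centring Shh-MBs were higher (0.60, adjusted p = 0.0419). Between the lesions and Shh-MBs the difference turned to -0.49 with median centring and -0.15 with quantile normalization.

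**Figure D2:**
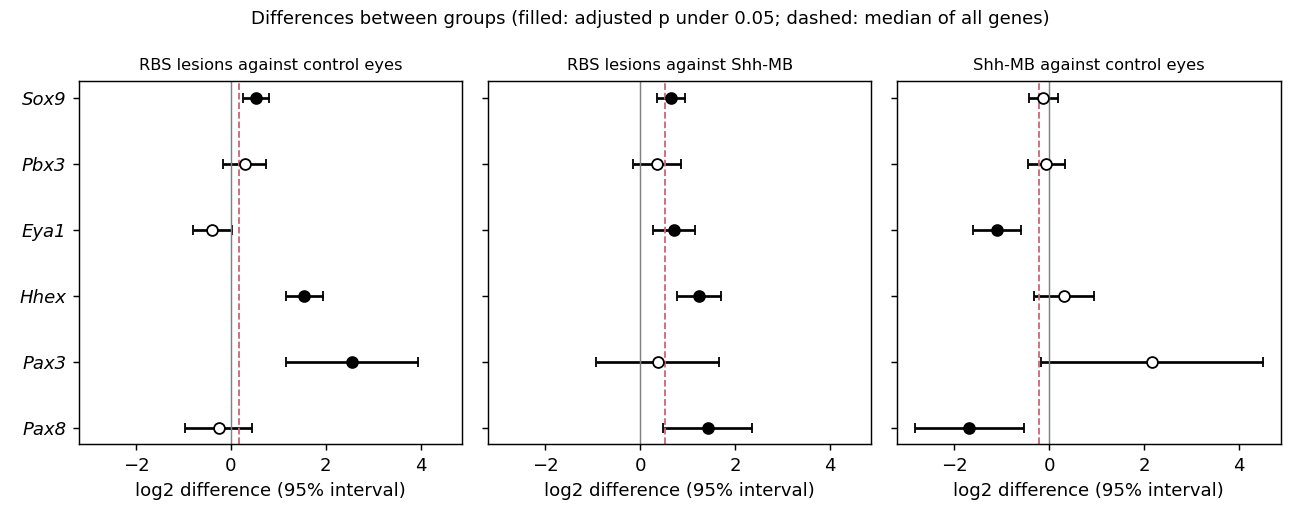
Log2 differences of the 6 genes in the 3 comparisons, with 95% intervals from limma and filled points at an adjusted p under 0.05. The dashed line is the median of all genes, at 0.17, 0.53 and -0.22 from left to right. In the left panel, *RBS* lesions against control eyes, *Hhex* (1.55) and *Pax3* (2.55) lie farthest to the right. For *Pax3*, 3 control eyes are at the floor, so its size depends on the value added before the log.

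Against Shh-MBs, 4 of 6 genes were higher in *RBS* lesions (*Hhex*, *Eya1*, *Sox9* and *Pax8*), beside 60.8% of all panel genes that differed in either direction and 48.1% that were higher. The groups did not overlap for 3 of 6 genes, beside 59.9% of the panel (47.0% higher and 12.9% lower), and 12.7% of all genes were lower at the threshold. The median log2 difference of the 6 genes was 0.68, beside 0.53 over all genes. In Shh-MBs against control eyes, *Eya1* and *Pax8* were lower, 2 of 6 genes beside 41.0% of the panel in either direction and 31.4% in the lower one. The groups did not overlap for the same genes, beside 48.2% of the panel (12.2% higher and 36.0% lower), and 9.61% of all genes were higher at the threshold. The median log2 difference of the 6 genes was -0.10, beside -0.22 over all genes. The comparisons share samples, so their results are not independent of each other.

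**Figure D3:**
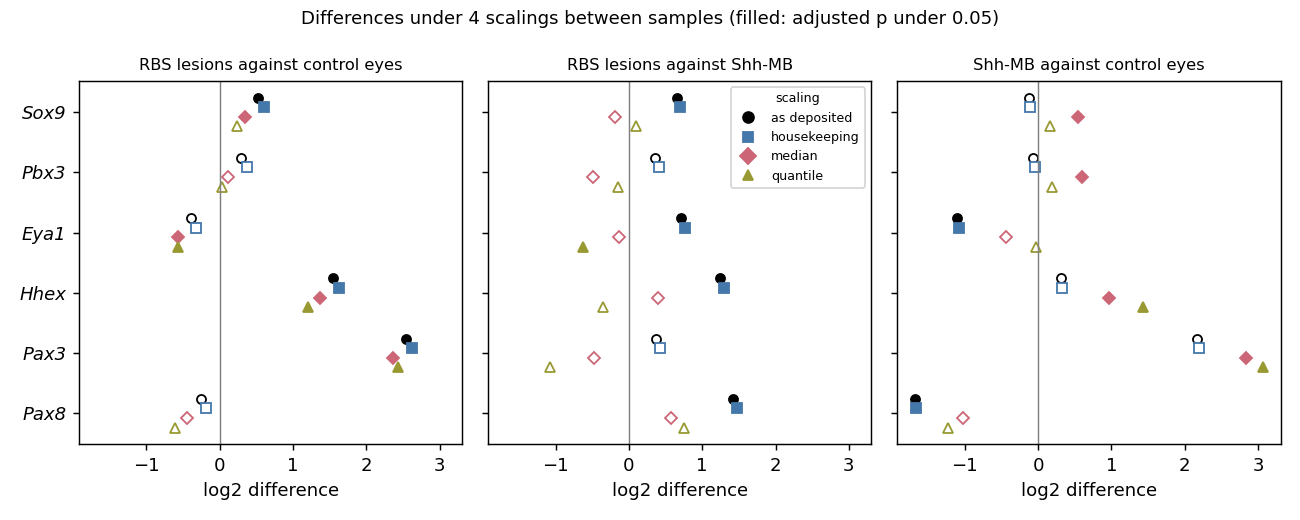
Log2 differences of the 6 genes with the deposited scaling and with samples centred on housekeeping genes, centred on the median or quantile normalized, filled at an adjusted p under 0.05. Against control eyes (left) every gene keeps its direction. Against Shh-MBs (middle) *Sox9*, *Pbx3*, *Eya1*, *Hhex* and *Pax3* cross 0 in at least 1 scaling, and *Pax8* does not.

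Scaling moved the comparisons with Shh-MBs most. The median log2 difference over all genes between *RBS* lesions and Shh-MBs was 0.53 with the deposited scaling, 0.58 with housekeeping genes, -0.32 after median centring and -0.10 after quantile normalization. Of the genes that differed, the share with a higher level in the lesions was 79.1%, 80.3%, 36.2% and 46.2% in the same order. Between *RBS* lesions and control eyes the median was 0.17, 0.24, -0.01 and 0.003 (share of higher genes 64.5%, 69.6%, 50% and 50.8%), and none of the 6 genes changed direction. Between Shh-MBs and control eyes it was -0.22, -0.20, 0.44 and 0.17 (share of higher genes 23.4%, 25.8%, 69.1% and 59.9%).

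Of 54 other developmental transcription factors listed, 32 were on the panel. In *RBS* lesions against control eyes, 7 were higher, 10 lower and 15 did not pass, with a median log2 difference of 0.26 beside 0.17 for all genes. Of the panel, 33.0% were higher and 18.2% lower. The largest rise on the scale of log2(signal + 1) was *Nr4a3*, an orphan nuclear receptor, with 10.2 ± 4.18 (SD, n = 5) against 2.38 ± 2.68 (SD, n = 4) and a log2 difference of 1.92 (limma adjusted p = 0.00559), where 3 control eyes were next to 1. This rank depends on the value added before the log: with 5 added, *Nr4a3* differed by 1.06 and *Foxl2*, a forkhead factor, by 1.57. *Foxl2* was 34.6, 52.1, 60.9 and 268 in control eyes 1 to 4 and 139 to 300.5 in the lesions, so control eye 4 lay within the range of the lesions. The largest fall was *Myb*, a factor of progenitor cells, with 132 ± 45.2 (SD, n = 5) against 899 ± 124 (SD, n = 4) and a log2 difference of -2.81 (limma adjusted p = 2.42e-05). Against Shh-MBs, 17 were higher, 3 lower and 12 did not pass, with a median of 0.78 beside 0.53 for all genes, and of the panel 48.1% were higher and 12.7% lower. *Gata3*, the largest rise on the scale of log2(signal + 1), was 60.7 ± 12.4 (SD, n = 5) in the lesions and between 1.00 and 1.12 in the tumors. No fold is given, since the size that sets this rank depends on the value added before the log. The largest fall was *Mycn*, with 701 ± 66.4 (SD, n = 5) against 3617 ± 459 (SD, n = 3). In Shh-MBs against control eyes, 4 were higher, 14 lower and 14 did not pass, beside 9.61% higher and 31.4% lower of the panel.

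Markers of other cells that an eye or lesion could hold moved as follows. Of 7 mesenchymal genes measured, *Col1a1* and *Col1a2* fell from control eyes to *RBS* lesions and 5 did not pass. The sum of the list was 19843 to 36410 against 25546 to 57829, and 1475 to 2099 in Shh-MBs. Of 6 neuronal genes, 5 rose from control eyes to *RBS* lesions, with a sum of 2280 to 3045 against 556 to 726. Of 7 surface epithelium genes, 4 were higher and 3 did not pass, with a sum of 594 to 1069 against 340 to 637, and 16.1 to 25.3 in Shh-MBs. The sum of the 4 genes measured of the radial and Müller glia list was 3697 to 5449 in control eyes and 2931 to 3949 in the lesions. *Kit*, the sole pigment cell marker measured of 5 listed, was higher in *RBS* lesions (log2 difference 0.48, limma adjusted p = 0.00849). The retina marker *Fgf15* was lower. Of the granule cell markers, *Gli1* fell (-0.67, adjusted p = 0.00559) and *Zic2* did not pass (0.14, adjusted p = 0.557). Their part in the results of the 6 genes was not tested.

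The panel genes with the pattern most like each of the 6 were found by the root mean square difference of gene-centred log2 values over the 12 samples, among the 569 genes whose mean log2 level reached that of a signal of 20. Nearest to *Sox9* was *Smad1*, a transducer of BMP signals (0.0949). *Smad1* was 465 ± 18.6 (SD, n = 4) in control eyes, 712 ± 66.6 (SD, n = 5) in the lesions and 444 ± 19.8 (SD, n = 3) in the tumors. *Hdac6*, a deacetylase of tubulin, came next (0.119). *Pbx3* was most like *Rps6ka6* (0.181) and *Bid* (0.185), *Eya1* most like *Arid1b* (0.268) and *Mnat1* (0.279), and *Hhex* most like *Them4* (0.297) and *Dusp8* (0.317). *Pax8* had *Fgf12* (0.391) and *Flt1* (0.408). *Pax3* had *Fzd9* at 0.888 and *Ptprr* at 0.92. None of the genes named for *Pax8* and *Pax3* was kept with a pseudocount of 5. *Pax8*, *Pax3* and *Hhex* were themselves below the level of the search, so genes as low as these were not compared. The distance is not scaled to a gene's spread, so an evenly measured gene has small distances, and they are not ranked across the 6 genes. The likeness is a description over all 12 samples, and it does not separate differences between the groups from those within them.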

How the data were processed

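RNA of 12 fresh frozen murine samples (5 *RBS* lesions, 4 control eyes, 3 Shh-MBs) was measured by the authors on the nCounter mouse PanCancer pathways panel and normalized in nSolver and its Advanced Analysis module. The deposited values hold normalized signal, not log-transformed. Low values lie on even steps of 0.81 to 1.64, the signal of 1 count, and a gene not above background has its sample's lowest value. The background subtracted and the reference genes are not given in the sources used here, so no counting interval can be given. Of the 770 symbols, 760 matched RefSeq (GRCm38.p6) directly and 10 through a synonym.

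Values were analysed as log2(signal + 1) without a filter. Each pair of groups was fitted alone with limma (version 3.58.1, R version 4.3.3) and moderated by eBayes. Tests were two-sided, p-values were adjusted by Benjamini-Hochberg across the 770 genes, and the threshold was 0.05. The fit was also run on simulated data with normal residuals and no floor, so that run does not bear on genes near the floor. Fold changes are on the log2(signal + 1) scale and understate changes of low genes. Alternatives were a pseudocount of 5, median, housekeeping (11 genes) and quantile scaling, a filter at log2 of 20, signals under 20 set to 20, all 12 samples in 1 fit, trend and robust settings, the methods' Welch test without its permutations, a block for the replicate number, and leaving out each sample. Plots were made in Python 3.11.15 (matplotlib 3.10.9).

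The 6 genes, the list of other transcription factors and the 10 marker lists were chosen with earlier results of these data known. Genes were named by rule: the 6 genes, the 2 nearest genes to each, the largest rise and fall of that list, the targeted genes and defining markers. Genes with which a marker list moved were also named. Samples are individual animals, numbered within each group. Same-numbered samples did not deviate together: the correlations of their deviations lay between -0.148 and 0.188. A list of relatives and partners of the 6 genes is not reported here.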

Additional observations from a re-analysis of the deposited data

Results flagged for a closer look

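In 2 of the 12 sets of values examined (6 genes in control eyes and in *RBS* lesions), 1 sample stood apart from its group by Dixon's test at the 95% level, which chance gives in about 1 of 20 sets. *Pax3* in control eye 4 was 15.7, where the other 3 control eyes were at the lowest value of their samples. The spread of those 3 is only that of the scaling factors, so any value above background would stand apart and the chance rate does not apply to this set. *Pbx3* in RBS 1 was 407, where the other *RBS* lesions lay between 680 and 791. RBS 1 had the lowest depth of all samples, 335348 counts above background. It held 248 counts of *Pbx3*, and its *Sox9* signal of 595 lay within the range of the other lesions. Whether depth has a part in the *Pbx3* value was not tested. Groups of 3 samples, the Shh-MBs, were not examined in this way.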

How the results depend on the processing

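Of 331 values of single genes under alternatives, 273 kept their direction and their side of the threshold, 15 changed sign, some of them with a change of call, and among those that kept their sign 30 lost a call and 13 gained one. Changed signs were seen for *RBS* lesions against Shh-MBs with median centring (*Eya1* -0.13, *Sox9* -0.19, *Pax3* -0.47, *Pbx3* -0.49), quantile normalization (*Eya1* -0.62, *Pax3* -1.07, *Pbx3* -0.15, *Hhex* -0.35), signals under 20 set to 20 (*Pax3* -0.13) and without Shh-MB 2 (*Pax3* -0.42, from a range of -0.42 to 0.90 with each sample left out). For Shh-MBs against control eyes they were seen with median centring (*Sox9* 0.54, *Pbx3* 0.60), quantile normalization (*Sox9* 0.17, *Pbx3* 0.19) and without Shh-MB 1 (*Pbx3* 0.035, from a range of -0.17 to 0.035). Of the 6 genes, the number past the threshold was 0 in all 3 comparisons with the methods' Welch test and step-down Bonferroni adjustment, which passed 72, 80 and 36 panel genes in place of 394, 468 and 316. For *RBS* lesions against Shh-MBs (4 of 6) it was 0 with median centring, 1 with quantile normalization (*Eya1*, then lower, so none of the 4 calls remained) and 2 with the Welch test and Benjamini-Hochberg adjustment. Of the 770 panel genes, 500, 439 and 380 passed under these settings in the same order. For Shh-MBs against control eyes (2 of 6) it was 4 with median centring (*Sox9*, *Pax3*, *Pbx3* and *Hhex*, all higher, while *Eya1* and *Pax8* did not pass), 2 with quantile normalization (*Pax3* and *Hhex*, higher), 1 with low genes left out, 1 with signals under 20 set to 20, 1 with the Welch test and Benjamini-Hochberg adjustment, and 1 to 3 with each sample left out. Of the 770 panel genes, 450 passed with median centring (311 higher) and 372 with quantile normalization (223 higher). The cause of these changes was not tested. With a block for the replicate number, which pairs no animals, samples without a same-numbered partner do not bear on the differences (RBS 5 against control eyes, RBS 4 and 5 against Shh-MBs, control eye 4 against Shh-MBs), so the choice of samples changes with the block. Then 301, 407 and 230 panel genes passed, and of the 6 genes 4, 3 and 3: *Eya1* passed against control eyes in *RBS* lesions (-0.50, adjusted p = 0.0434, limma), as without RBS 5 alone (-0.50), and did not pass against Shh-MBs (adjusted p = 0.073), and *Pax3* passed in Shh-MBs (2.92, adjusted p = 0.0431), as without control eye 4 alone (2.92), both against 3 control eyes at the floor, whose spread is only that of the scaling factors. *Pax8* had no value with signals under 20 set to 20, since all its signals are below that, and low genes were not tested when left out. Of the 12 nearest genes, 8 were kept with the mean absolute difference and 7 with a pseudocount of 5. Low counts limit *Pax3*, *Pax8* and, in control eyes and Shh-MBs, *Hhex*.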
